A study of Homo sapiens with 6 samples.

Results

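Polyamine metabolism was followed through 10 genes, a fixed list of enzymes and regulators, among the 60658 genes listed for each library. The list was chosen with earlier results of these data known. ODC1, AMD1, SRM and SMS make polyamines, SAT1, PAOX and SMOX break them down, and OAZ1, OAZ2 and AZIN1 control the first enzyme of synthesis. RNA was sequenced after 48 h with apoptozole (APO) or VER155008 (VER), each inhibitor at 10 µM, or with DMSO as vehicle. Both compounds inhibit the ATPase of the chaperone HSP70, and the 2 lines treated were CWR22Rv1 and C4-2B MDVR. Both lines are castration-resistant human prostate carcinoma cells, and the study describes both as resistant to enzalutamide and abiraterone. The C4-2B MDVR line was derived from C4-2B and was kept in 20 µM enzalutamide, while the growth protocol names none for CWR22Rv1. Each of the 6 conditions had 1 library, so no difference could be checked against replicates and none carries a p-value. The name C4-2B MDVR is that of the library titles, and the source label of the same libraries reads LNCaP-C4-2B, with all cells called parental.

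Polyamines are small, positively charged molecules that bind RNA and DNA and are needed for growth, and the prostate is known for making and secreting large amounts of spermine. Ornithine decarboxylase turns ornithine into putrescine, and spermidine synthase and spermine synthase extend it in turn with aminopropyl groups drawn from S-adenosylmethionine. Breakdown starts with acetylation by spermidine/spermine acetyltransferase, after which polyamine oxidase shortens the chain, while spermine oxidase acts on spermine directly and releases hydrogen peroxide. Antizymes bind ornithine decarboxylase and send it to the proteasome, and much of this control acts on protein, which RNA levels do not show.

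Promoter windows of 250 bases before to 50 bases after a transcription start were read from RefSeq (GRCh38.p14) and were held for 7 of the 10 genes. They were searched on both strands for the E-box CACGTG, to which MYC binds, for TGATGNAA, a core of the C/EBP-ATF response element used by ATF4, and for TATGACTAA, the polyamine-responsive element known from SAT1. The E-box was present in 7.26% of the 35116 windows of this length in the table, TGATGNAA in 3.62% and TATGACTAA in 0.0997%. Among the genes with windows, ODC1 held 2 E-boxes around its inner start and SRM held 1, and no other match was found. Bases further than 250 before a start were not searched, so a gene without a match here may hold the element elsewhere. The windows of ODC1 and SRM are printed because they carry these matches and both genes were lower with each inhibitor in C4-2B MDVR cells. SMS was lower with each inhibitor there as well and held no match, and ODC1 was higher with APO in CWR22Rv1 cells. The window of SAT1 is printed because its fold change with APO was the largest of the 10. The sequences run 5′ to 3′ on the strand of the gene, with E-boxes in capitals. A match is a description of the letters and not of binding.
ODC1, outer start, chr2:10448278-10448577, minus strand: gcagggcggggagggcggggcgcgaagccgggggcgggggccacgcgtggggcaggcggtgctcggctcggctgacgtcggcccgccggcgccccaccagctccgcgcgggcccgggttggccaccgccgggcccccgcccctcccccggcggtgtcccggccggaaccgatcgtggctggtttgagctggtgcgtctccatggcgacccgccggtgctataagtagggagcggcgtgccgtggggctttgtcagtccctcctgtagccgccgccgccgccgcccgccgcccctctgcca
ODC1, inner start, chr2:10447963-10448262, minus strand: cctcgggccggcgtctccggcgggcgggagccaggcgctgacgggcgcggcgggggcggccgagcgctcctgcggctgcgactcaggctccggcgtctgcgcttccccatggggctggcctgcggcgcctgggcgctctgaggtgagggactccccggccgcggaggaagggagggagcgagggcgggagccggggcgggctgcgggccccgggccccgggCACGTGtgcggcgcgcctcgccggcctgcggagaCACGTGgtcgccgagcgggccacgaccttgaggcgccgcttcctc
SRM, chr1:11059969-11060268, minus strand: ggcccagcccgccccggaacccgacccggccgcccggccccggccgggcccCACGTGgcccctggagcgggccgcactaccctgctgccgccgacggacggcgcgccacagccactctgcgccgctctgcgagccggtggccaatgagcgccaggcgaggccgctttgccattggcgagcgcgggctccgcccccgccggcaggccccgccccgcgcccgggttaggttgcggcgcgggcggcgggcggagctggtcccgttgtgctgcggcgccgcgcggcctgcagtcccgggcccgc
SAT1, chrX:23782923-23783222, plus strand: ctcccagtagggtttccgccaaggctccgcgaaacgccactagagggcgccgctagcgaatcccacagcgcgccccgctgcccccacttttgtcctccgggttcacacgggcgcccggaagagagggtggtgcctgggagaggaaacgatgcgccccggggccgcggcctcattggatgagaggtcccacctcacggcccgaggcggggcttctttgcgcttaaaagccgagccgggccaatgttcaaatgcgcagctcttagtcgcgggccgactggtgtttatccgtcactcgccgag

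The deposited values are FPKM, fragments scaled by transcript length and by library size, so levels can be set side by side between genes per length. All 10 genes were above 0.1 FPKM in all 6 libraries, and the 6 prostate epithelial markers HOXB13, FOLH1, KRT8, KRT18, TMPRSS2 and KLK3 were above 1 FPKM in each. Their levels were not constant. With APO the log2 fold changes in C4-2B MDVR and then CWR22Rv1 cells were -3.12 and -3.64 for KLK3, -1.96 and -1.25 for TMPRSS2, -2.00 and -0.64 for HOXB13, -0.21 and 0.08 for FOLH1, 0.61 and 0.40 for KRT8, and 0.41 and 0.94 for KRT18. With VER they ran from -1.67 (KLK3) to 0.17 (FOLH1) in C4-2B MDVR cells and from -0.45 (HOXB13) to 0.47 (FOLH1) in the other line. Their part in the polyamine values was not tested. The files give no read totals. Ratios of low FPKM between libraries had a weak peak, holding 8.1% to 19.2% of the low genes, which put relative depth between 1.14 and 1.63 of the C4-2B MDVR DMSO library. Genes of the mitochondrial chromosome held 14.8% to 16.4% of the summed FPKM in C4-2B MDVR cells, and in CWR22Rv1 cells 25.7% with DMSO, 25.7% with VER and 10.4% with APO. In bulk RNA, less RNA per cell and fewer cells with that RNA cannot be told apart. Fold changes were taken on the log2(FPKM + 0.1) scale, 1 library minus another, and a gene counted as higher or lower past 1.2-fold, the fold used in the study. Genes compared had over 0.1 FPKM in some library of the line. The APO and VER differences of a line share its DMSO library.

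**Figure D1:**
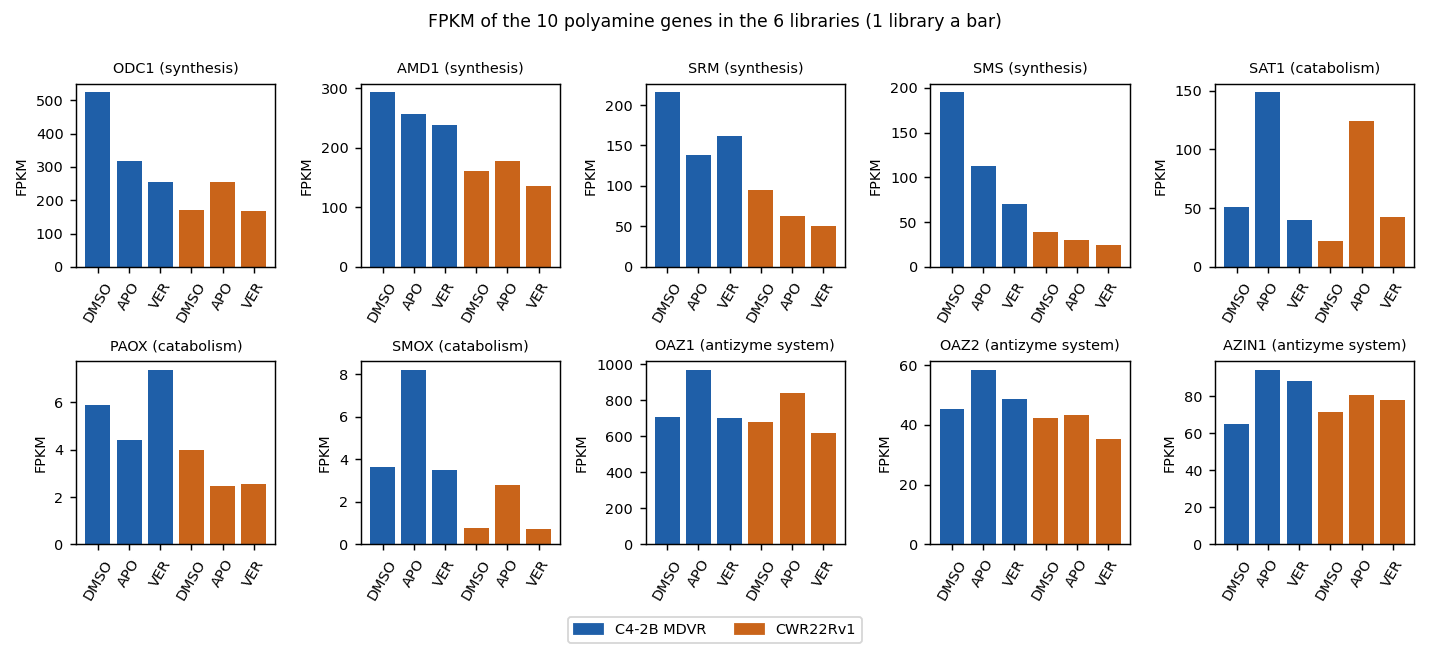
FPKM of each of the 10 genes (y axis, its own linear scale from 0 in each panel) in the 6 libraries (1 bar each, no replicates). SAT1 and SMOX stand highest in the APO library of each line, and ODC1, AMD1, SRM and SMS stand highest in the C4-2B MDVR DMSO library.

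The enzymes of synthesis were lower with both inhibitors in C4-2B MDVR cells and mixed in CWR22Rv1 cells. With APO 3 of the 4 synthesis genes were over 1.2-fold lower in C4-2B MDVR cells, against 35.4% of all genes compared, with a median log2 fold change of -0.68 against 0 for all genes. With VER all 4 were lower, against 34.9% of all genes, with a median of -0.73. In CWR22Rv1 cells 2 were lower with APO (39.2% of all genes) and 1 was higher (35.6%), with a median of -0.11, and 2 were lower with VER (32.3% of all genes), with a median of -0.43. SRM and SMS were the only members lower past 1.2-fold in all 4 comparisons with DMSO, as were 11.3% of the 18059 genes compared in both lines, and after rescaling each library to the same sum (TPM) SMS with APO in CWR22Rv1 cells was at -0.23, inside 1.2-fold.

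ODC1 (ENSG00000115758, chromosome 2, 10439968 to 10448504 in GRCh38, minus strand) encodes ornithine decarboxylase, the rate-limiting enzyme of synthesis. In C4-2B MDVR cells it stood at 524 FPKM under DMSO, 319 under APO and 255 under VER. In CWR22Rv1 cells it stood at 171 FPKM under DMSO, 254 under APO and 167 under VER. The DMSO library of C4-2B MDVR cells was the highest of all 6, and in CWR22Rv1 cells the APO library was the highest. The log2 fold changes were -0.71 with APO and -1.04 with VER in the C4-2B MDVR line, and 0.57 and -0.03 in CWR22Rv1 cells. The direction with APO was thus opposite in the 2 lines, a gap of -1.29 on the log2 scale that was not tested. The CWR22Rv1 APO library also had the lowest mitochondrial share, whose part in this value was not tested, and with libraries scaled to the same sum outside the mitochondrial chromosome ODC1 was still higher there, by 0.42.

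AMD1 (ENSG00000123505, chromosome 6, 110874770 to 110895713, plus strand) encodes the decarboxylase that makes the aminopropyl donor. Its FPKM was 293 under DMSO, 257 under APO and 239 under VER in the C4-2B MDVR line, and 162, 178 and 136 in the same order in CWR22Rv1 cells. This was the least variable synthesis gene, with the highest library 2.15 times the lowest. Only for VER in C4-2B MDVR cells was it past 1.2-fold, at -0.29, and after either rescaling by sum APO in that line and VER in CWR22Rv1 cells passed it as well, at -0.34 and -0.31 with TPM. Reads of the processed pseudogenes AMD1P1 to AMD1P4 could be shared with AMD1, but none of these exceeded 0.544 FPKM in any library.

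SRM (ENSG00000116649, chromosome 1, 11054584 to 11060024, minus strand) encodes spermidine synthase. Its level was 216 FPKM under DMSO, 139 under APO and 161 under VER in the C4-2B MDVR line. In CWR22Rv1 cells the libraries held 95.1, 62.9 and 50.8 FPKM in the same order. DMSO was the highest library in each line, with log2 fold changes of -0.64 and -0.42 in C4-2B MDVR cells and -0.60 and -0.90 in CWR22Rv1 cells for APO and VER. Its pseudogenes SRMP1 and SRMP2 were listed at 0 in all libraries.

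SMS (ENSG00000102172, chromosome X, 21940573 to 21994835, plus strand) encodes spermine synthase, the last step. It was at 195 FPKM under DMSO, 113 under APO and 70.5 under VER in the C4-2B MDVR line. The CWR22Rv1 libraries held 38.6 FPKM under DMSO, 30.2 under APO and 25.0 under VER. The order was the same in both lines, with DMSO highest and VER lowest. Its log2 fold change of -1.47, for VER against DMSO in C4-2B MDVR cells, was the lowest of the 10 genes in the 4 comparisons with DMSO, and 7.81% of the 20122 genes compared lay below it. The ratio of SRM to SMS was 1.11 in C4-2B MDVR cells with DMSO and 1.23 with APO but 2.29 with VER, and in CWR22Rv1 cells it lay between 2.04 and 2.47.

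Catabolism genes were split with APO. SAT1 and SMOX were over 2-fold higher with APO in both lines, and PAOX was lower. Higher calls past 2-fold covered 15.4% of all genes with APO in C4-2B MDVR cells and 13.8% in CWR22Rv1 cells. The median log2 fold change of the 3 catabolism genes was 1.15 with APO in C4-2B MDVR cells and 1.73 in CWR22Rv1 cells, in each case the value of SMOX. With VER the medians were -0.05 and -0.11, again the values of SMOX, and no catabolism gene passed 2-fold in either line.

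SAT1 (ENSG00000130066, chromosome X, 23783173 to 23786226, plus strand) encodes the acetyltransferase that starts breakdown and export. In C4-2B MDVR cells it stood at 51.0 FPKM under DMSO, 148 under APO and 40.0 under VER. The CWR22Rv1 libraries held 21.9 FPKM under DMSO, 124 under APO and 42.4 under VER. Between the lines, C4-2B MDVR minus CWR22Rv1, the log2 difference was 1.22 with DMSO, 0.25 with APO and -0.08 with VER. APO gave the highest library in each line. These are 2.91-fold and 5.66-fold higher levels with APO, log2 fold changes of 1.54 and 2.50, and 97.96% of the 21608 genes compared in CWR22Rv1 cells lay below the latter. With VER the log2 fold change was -0.35 in C4-2B MDVR and 0.95 in the CWR22Rv1 line. The log2 difference of VER from APO, which does not use the DMSO libraries, was -1.89 for C4-2B MDVR cells and -1.55 for CWR22Rv1 cells. Scaling to the same sum outside the mitochondrial chromosome left the CWR22Rv1 change with APO at 2.35.

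SMOX (ENSG00000088826, chromosome 20, 4120980 to 4187747, plus strand) encodes spermine oxidase and was expressed at a low level. It stood at 3.64 FPKM under DMSO, 8.20 under APO and 3.50 under VER in the C4-2B MDVR line. In CWR22Rv1 cells it stood at 0.776 FPKM under DMSO, 2.80 under APO and 0.709 under VER. As for SAT1, APO gave the highest library in each line, while DMSO and VER were within 1.2-fold of each other. The log2 fold changes with APO were 1.15 and 1.73, and the latter was 1.10 with a pseudocount of 1, because the CWR22Rv1 levels are near that value.

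PAOX (ENSG00000148832, chromosome 10, 133379234 to 133391694, plus strand) encodes the oxidase of acetylated polyamines. Its levels were 5.89 FPKM under DMSO, 4.40 under APO and 7.37 under VER in the C4-2B MDVR line, and 3.98, 2.48 and 2.54 in CWR22Rv1 cells. APO was below DMSO in both lines, with log2 fold changes of -0.41 and -0.66. VER was above DMSO in C4-2B MDVR cells, at 0.32, and below it in CWR22Rv1 cells, at -0.63. PAOX overlaps AL360181.3, a gene on the same strand with at most 1.01 FPKM, so some reads of the 2 genes could be exchanged.

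**Figure D2:**
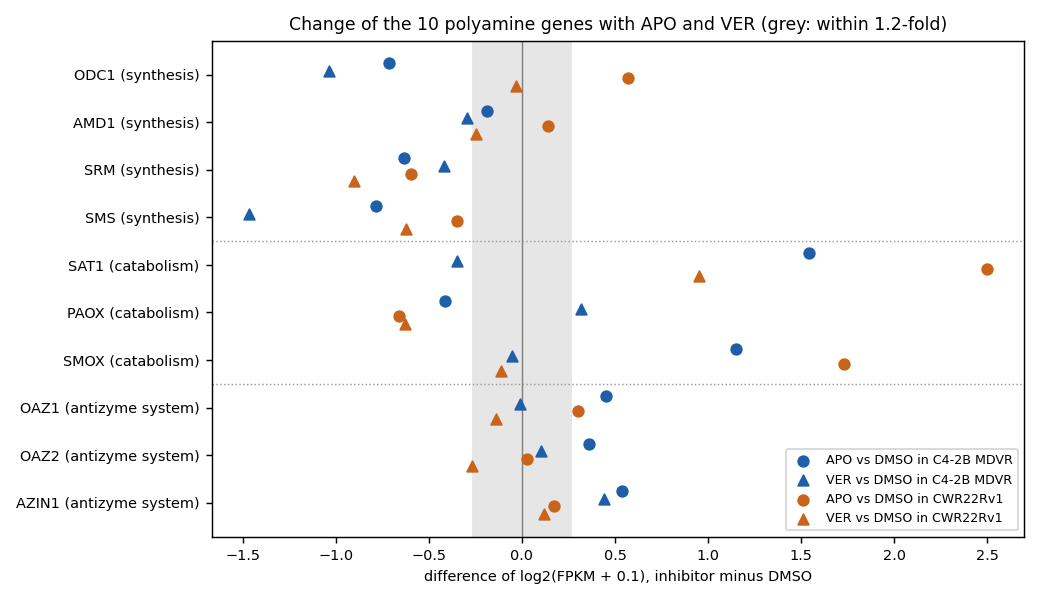
Difference of log2(FPKM + 0.1) between inhibitor and DMSO (x axis) for the 10 genes (y axis, by role); circles are APO, triangles VER, blue C4-2B MDVR and orange CWR22Rv1, 1 library against 1 library. SAT1 and SMOX with APO lie to the right, from 1.15 to 2.50, and SRM and SMS lie left of the grey 1.2-fold band in all 4 comparisons.

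Synthesis transcripts outweighed catabolism transcripts in every library, and by least with APO. The summed FPKM of the 4 synthesis genes was 1228 under DMSO, 828 under APO and 726 under VER in the C4-2B MDVR line, and 466, 525 and 379 in CWR22Rv1 cells. The summed FPKM of the 3 catabolism genes was 60.5, 161 and 50.9 in C4-2B MDVR cells and 26.7, 130 and 45.7 in CWR22Rv1 cells, in the same order. SAT1 made up 78.6% to 95.9% of the catabolism sum and ODC1 35.1% to 48.4% of the synthesis sum. The ratio of the sums was 20.3 under DMSO, 5.14 under APO and 14.3 under VER in the C4-2B MDVR line. In CWR22Rv1 cells it was 17.5 under DMSO, 4.05 under APO and 8.31 under VER. The ratio was therefore 3.95-fold lower with APO in C4-2B MDVR and 4.32-fold lower in the CWR22Rv1 line, and 1.42-fold and 2.10-fold lower with VER. In C4-2B MDVR cells the synthesis sum was lower and the catabolism sum higher with APO, while both sums were higher in CWR22Rv1 cells. Directly against APO, the ratio with VER was 2.77-fold higher in C4-2B MDVR cells and 2.05-fold higher in CWR22Rv1 cells. A ratio within a library does not depend on how libraries are scaled.

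**Figure D3:**
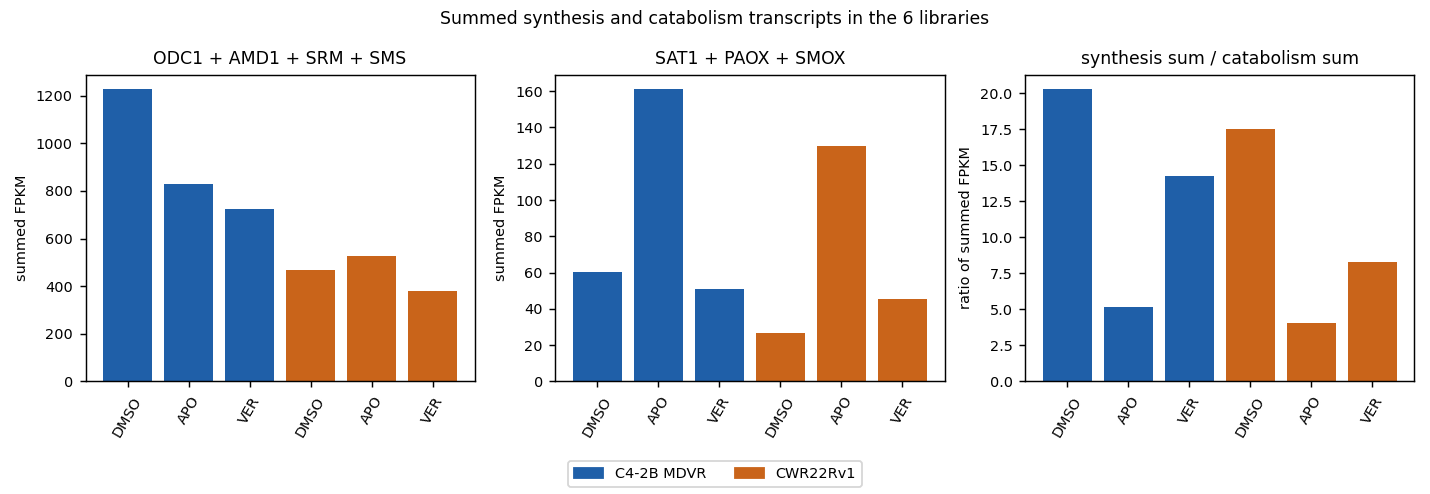
Summed FPKM of ODC1, AMD1, SRM and SMS (left), of SAT1, PAOX and SMOX (middle) and their ratio (right) in the 6 libraries, 1 bar each, linear axes from 0. The ratio is lowest with APO in each line, at 5.14 in C4-2B MDVR and 4.05 in the CWR22Rv1 line.

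The 3 antizyme members varied less than the enzymes among the 10 genes, with the highest library 1.45 to 1.66 times the lowest for each. Further antizyme genes outside the 10 varied more, by 3.18 times for OAZ3 and 6.48 times for AZIN2, at lower levels of at most 14.6 and 3.70 FPKM. OAZ1 (ENSG00000104904, chromosome 19, 2269509 to 2273490, plus strand), the main antizyme, was the most abundant of the 10 genes, at 708 FPKM under DMSO, 968 under APO and 704 under VER in the C4-2B MDVR line. In CWR22Rv1 cells it was at 681, 840 and 617 FPKM. APO was highest in both lines, by 0.45 and 0.30 on the log2 scale, and the latter was 0.15, inside 1.2-fold, with libraries scaled outside the mitochondrial chromosome. OAZ2 (ENSG00000180304, chromosome 15, 64687573 to 64703281, minus strand), a second antizyme, was at 45.5, 58.4 and 48.7 FPKM in C4-2B MDVR and 42.4, 43.3 and 35.2 FPKM in the CWR22Rv1 line. AZIN1 (ENSG00000155096, chromosome 8, 102826357 to 102893864, minus strand) encodes an inactive relative of ornithine decarboxylase that binds antizyme in its place. It was at 65.0, 94.3 and 88.2 FPKM in C4-2B MDVR and 71.6, 80.6 and 77.8 FPKM in the CWR22Rv1 line, so DMSO was the lowest library in each line, past 1.2-fold in C4-2B MDVR cells (0.54 and 0.44), and in CWR22Rv1 cells for APO after TPM rescaling only (0.29). The ratio of OAZ1 to ODC1 was 1.35 in C4-2B MDVR cells under DMSO, 3.03 under APO and 2.76 under VER, and 3.31 to 3.98 in CWR22Rv1 cells. The ratio of OAZ1 to AZIN1 was lower with VER, at 7.98 and 7.94, than in the other libraries, at 9.51 to 10.9. Antisense genes overlap OAZ2 and AZIN1, the highest being AZIN1-AS1 at up to 11.1 FPKM, and whether strand was used in counting is not given in the sources used here.

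Over all 10 genes, 5 were higher past 1.2-fold with APO in C4-2B MDVR cells (37.7% of all genes) and 4 lower (35.4%). With VER 2 were higher (35.6% of all genes) and 5 lower (34.9%). In CWR22Rv1 cells 4 were higher with APO (35.6% of all genes) and 3 lower (39.2%), and with VER 1 was higher (32.1%) and 4 were lower (32.3%). These shares of 10 genes lie on either side of those of all genes, and nothing is read from their size alone. Past 2-fold, 2 were higher with APO in each line, against 15.4% of all genes in C4-2B MDVR and 13.8% in the CWR22Rv1 line. In each line 0 were lower with APO, against 13.3% of all genes in C4-2B MDVR and 16.8% in the CWR22Rv1 line. With VER 2 were lower (13.3% of all genes) and 0 higher (14.4%) in C4-2B MDVR cells, namely ODC1 and SMS. No member passed 2-fold with VER in CWR22Rv1 cells, where 10.8% of all genes were higher and 8.92% lower.

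**Figure D4:**
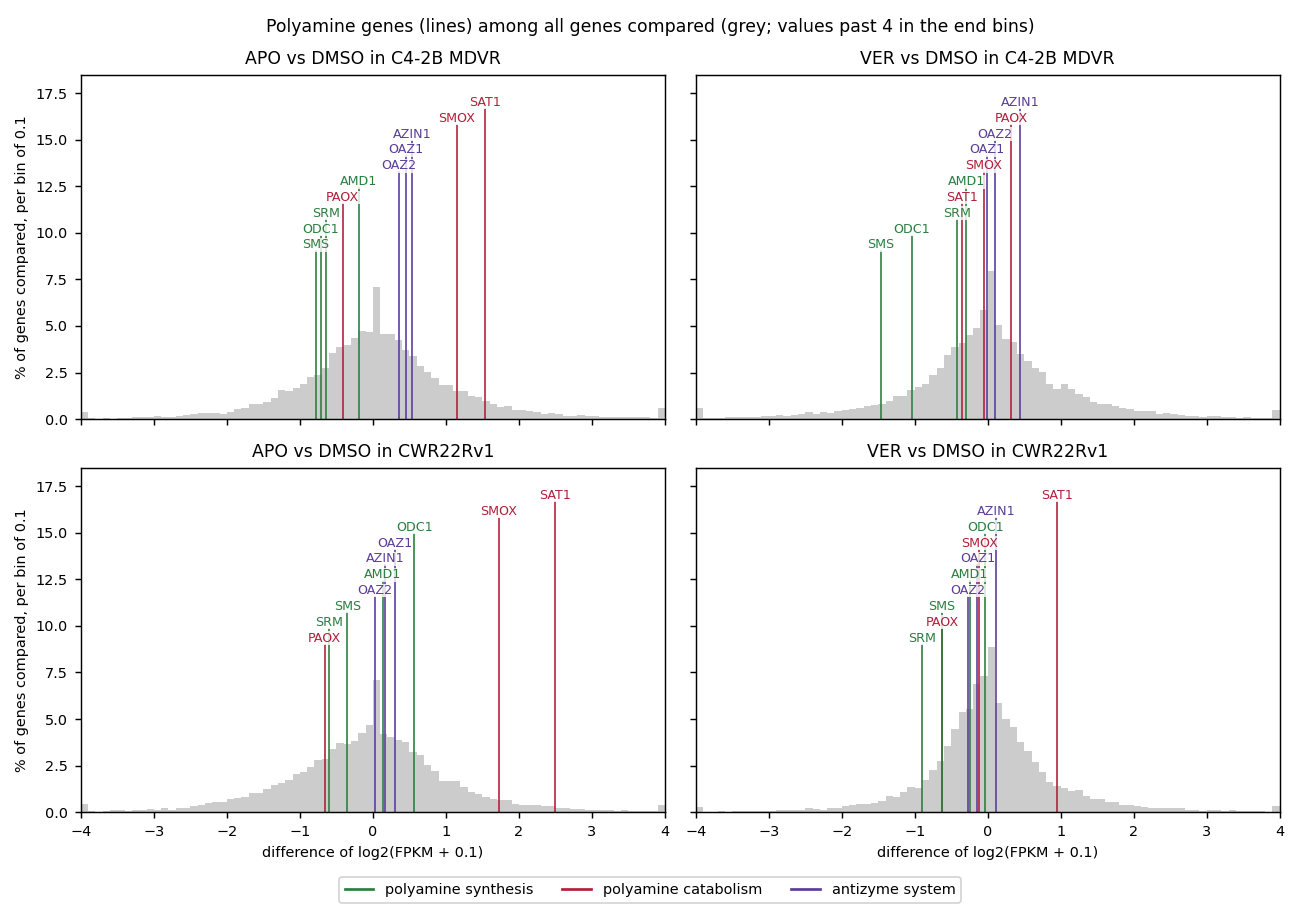
Distribution of the log2 fold changes of all genes compared (grey, percent of genes per bin of 0.1) with the 10 polyamine genes as coloured lines whose height carries no value, in the 4 comparisons of an inhibitor with DMSO. SAT1 lies in the upper tail with APO, at the 92.27th percentile in C4-2B MDVR and the 97.96th in the CWR22Rv1 line.

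With vehicle alone, C4-2B MDVR cells held more RNA of both arms than CWR22Rv1 cells. With DMSO 7 of the 10 genes were over 1.2-fold higher in C4-2B MDVR cells, against 35.5% of the 23671 genes compared, and 0 were lower, against 39.9%. SMS was 5.04-fold, SMOX 4.27-fold, ODC1 3.06-fold, SAT1 2.32-fold, SRM 2.27-fold, AMD1 1.81-fold and PAOX 1.47-fold higher. The 3 antizyme genes were within 1.2-fold, between -0.14 and 0.10 on the log2 scale. With APO the difference was smaller for ODC1, at 1.26-fold, and for SAT1, at 1.19-fold. It was also smaller with VER, at 1.525-fold for ODC1 and 0.944-fold for SAT1. The synthesis to catabolism ratio differed little between the DMSO libraries, by 0.21 on the log2 scale. Line, culture and enzalutamide in the medium cannot be told apart in this comparison.

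Of 28 further genes around the pathway, 4 were higher past 1.2-fold in all 4 comparisons, ARG2, ASS1, SAT2 and SLC3A2, against 9.59% of the 18059 genes compared in both lines. In the same way 2 were lower, EIF5A and MTAP, against 11.3%. SLC3A2, the heavy chain of several amino acid transporters that has also been linked to polyamine export, was at 126 FPKM under DMSO, 1251 under APO and 490 under VER in the C4-2B MDVR line. In CWR22Rv1 cells it was at 261, 1496 and 582 FPKM, so that DMSO was lowest and APO highest in each line, with log2 fold changes of 3.31 (APO) and 1.96 (VER) for C4-2B MDVR cells, then 2.52 and 1.16 for CWR22Rv1 cells. SAT2, a relative of SAT1, had log2 fold changes of 0.83, 0.83, 0.98 and 0.69 in the same order. The other further catabolism genes mostly went the other way. HDAC10 was at -0.62, -0.41, -1.25 and -0.21. AOC1, at no more than 0.518 FPKM, was at 0.10, -0.61, -1.08 and -0.28. ARG2, the mitochondrial arginase that supplies ornithine, was at 21.1, 48.2 and 40.2 FPKM in C4-2B MDVR and 6.66, 23.1 and 14.5 FPKM in the CWR22Rv1 line. ASS1, which makes argininosuccinate on the way to arginine, was at 71.7, 165 and 147 FPKM in C4-2B MDVR cells and only 2.10, 7.39 and 2.83 FPKM in CWR22Rv1 cells. EIF5A, the factor that carries the spermidine-derived residue hypusine and has near-identical copies that could share its reads, was at 592, 401 and 349 FPKM in C4-2B MDVR and 593, 430 and 396 FPKM in the CWR22Rv1 line. MTAP, which clears the methylthioadenosine left by both aminopropyl transfers, differed from DMSO on the log2 scale by -0.81 (APO) and -0.77 (VER) for C4-2B MDVR cells, and by -0.54 and -0.60 in the other line.

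The wider genes as a group had median log2 fold changes of 0.10 and -0.01 in C4-2B MDVR and -0.06 and -0.02 in the CWR22Rv1 line with APO and VER, close to the medians of all genes. With APO 11 of 27 compared were higher (37.7% of all genes) and 9 lower (35.4%) in C4-2B MDVR cells, and 12 of 27 were higher (35.6%) and 11 lower (39.2%) in CWR22Rv1 cells. With VER 9 were higher (35.6% of all genes) and 8 lower (34.9%) in C4-2B MDVR cells, and 8 were higher (32.1%) and 7 lower (32.3%) in the other line. The other genes named for the size of their changes, AGMAT and ATP13A4, had low levels. AGMAT was listed at 0 in the C4-2B MDVR libraries and was at 1.92 FPKM under DMSO, 0.609 under APO and 0.901 under VER in CWR22Rv1 cells. ATP13A4 reached 2.81 FPKM with APO in CWR22Rv1 cells and 0.284 FPKM in C4-2B MDVR cells, and was at or under 0.112 FPKM in the other libraries. No fold is given against a library listed at 0.

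**Figure D5:**
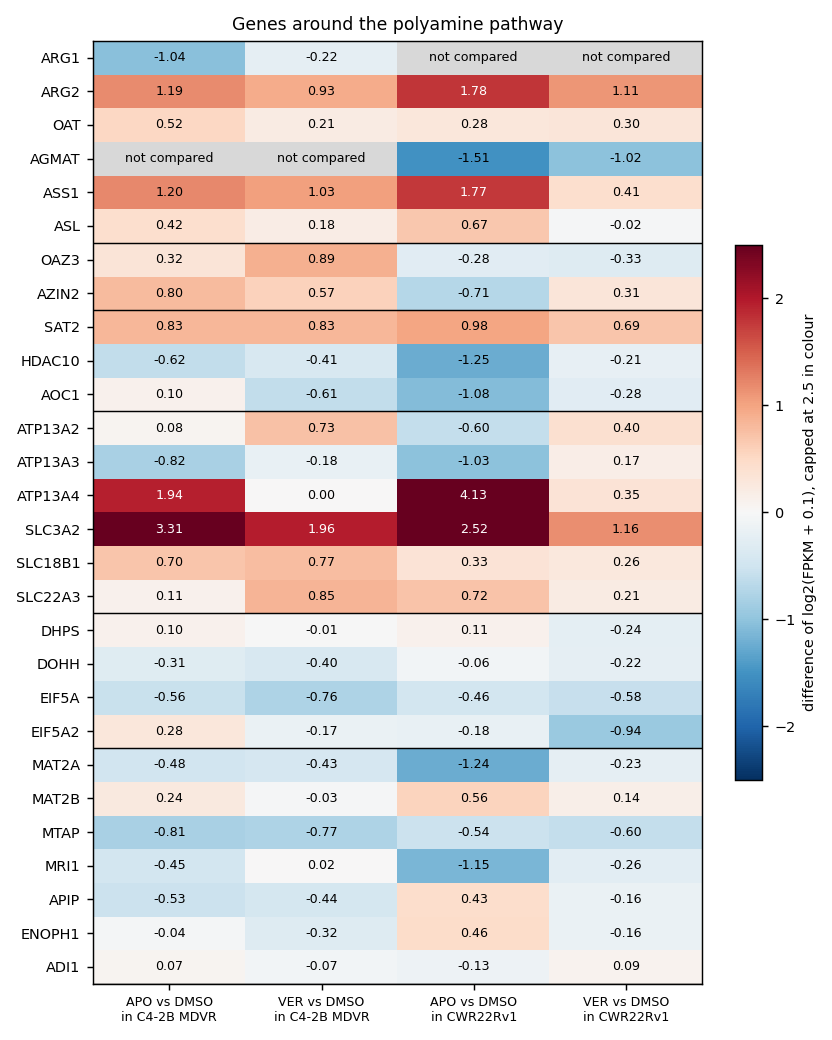
Difference of log2(FPKM + 0.1) between inhibitor and DMSO (colour and printed value) for 28 genes around the pathway (rows, grouped by list from ornithine supply at the top to methylthioadenosine salvage at the bottom) in the 4 comparisons (columns). SLC3A2 is higher in all 4, from 1.16 to 3.31, and EIF5A and MTAP are lower in all 4. The values of ATP13A4 and ARG1 with APO in C4-2B MDVR cells involve a library listed at 0 and rest on the pseudocount.

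Among 7531 protein-coding genes averaging at least 10 FPKM, the pattern of ODC1 over the 4 treatment comparisons was most like those of MEAF6, MKLN1 and TADA2A, with root mean square distances of 0.12, 0.13 and 0.14 on the log2 scale. SAT1 had no neighbour that close. The nearest were JMJD1C at 0.48, TGIF1 at 0.55 and DUSP1 at 0.59, all highest with APO in both lines, which their selection by these values favours. With VER in C4-2B MDVR cells JMJD1C was at 0.36 and TGIF1 at 0.265, unlike SAT1 at -0.35, and DUSP1 was at -0.18. JMJD1C, for example, was at 15.0 FPKM under DMSO, 38.5 under APO and 19.4 under VER in the C4-2B MDVR line, and at 7.46, 29.2 and 11.8 FPKM in the other line. These distances rest on 6 single libraries and describe likeness of values.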

How the data were processed

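The authors aligned paired-end reads with HISAT to GRCh38, ran Cufflinks, and deposited the FPKM of each gene after Cuffnorm had normalized the libraries. The study also names TopHat and StringTie, and versions and annotation release are not given in the sources used here. The labels describe a stranded kit with poly(A) selection, the study another kit. Of the 60658 Ensembl identifiers, 57047 are in GENCODE 29 (GRCh38), which gave symbols and coordinates.

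FPKM are not counts and whole reads were not recovered, so no count test or counting error is given. Differences of log2(FPKM + 0.1) were computed between single libraries for genes above 0.1 FPKM in at least 1 library of the line (of both lines, between lines). Genes were named as all 10 members, wider genes with a log2 change of at least 1 in at least 2 of the 4 treatment comparisons or beyond 1.2-fold the same way in all 4 (the latter chosen after their values were seen), and the 3 nearest genes of ODC1 and SAT1. ARG1, HDAC10, AOC1, OAZ3 and AZIN2 were also named after their values were seen. The members and lists were chosen with earlier results of these data known. Some items of the marker and wider lists are not reported here. The calling code was checked on copies of a DMSO library with 200 genes changed by set amounts. That check covers the code and not the noise between real libraries. Python 3.11.15, pandas 2.3.3, numpy 2.4.6 and matplotlib 3.10.9 were used. In all, 10 alternatives were tried: pseudocounts of 0.01 and 1, no filter, a filter of 1 FPKM, 3 rescalings, thresholds of 1.5-fold and 2-fold, and pseudogene FPKM added to members.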

Additional observations from a re-analysis of the deposited data

Results flagged for a closer look

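In 3 cases a member lay past 1.2-fold in opposite directions in the 2 lines, each with 1 library a condition, and none of these differences was tested. How many of all genes did so was not computed, so nothing is read from this count. ODC1 with APO had a log2 fold change of -0.71 in C4-2B MDVR and 0.57 in the CWR22Rv1 line. For SAT1 with VER the values were -0.35 and 0.95. PAOX with VER was at 0.32 in C4-2B MDVR and -0.63 in the CWR22Rv1 line. The DMSO level in C4-2B MDVR and then CWR22Rv1 cells was 524 against 171 FPKM for ODC1, 51.0 against 21.9 for SAT1 and 5.89 against 3.98 for PAOX. It was higher past 1.2-fold in C4-2B MDVR cells for 7 of the 10 members, against 35.5% of the 23671 genes compared. Its part in the 3 cases was not tested.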

How the results depend on the processing

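The medians of synthesis and catabolism moved by no more than 1.2-fold under the alternatives that give them, with 1 exception, and no called value changed sign. The exception was catabolism with APO in CWR22Rv1 cells, which was 1.10 with a pseudocount of 1 because it is the value of SMOX, a gene near 1 FPKM. The synthesis median with APO in CWR22Rv1 cells, which is inside 1.2-fold, lay between -0.26 and 0.01. The number of members past the threshold follows the threshold. At 1.5-fold it was 5 (APO) and 2 (VER) for C4-2B MDVR cells and 4 (APO) and 4 (VER) for CWR22Rv1 cells. The share of all genes past 1.5-fold was not computed, so nothing is read from these counts. At 2-fold the number of members was 2 (APO) and 2 (VER) for C4-2B MDVR cells and 2 (APO) and 0 (VER) for CWR22Rv1 cells. Of all genes, 15.4% were higher and 13.3% lower past 2-fold with APO in C4-2B MDVR cells, and 14.4% and 13.3% with VER. In CWR22Rv1 cells these shares were 13.8% and 16.8% with APO and 10.8% and 8.92% with VER. The SAT1 change with APO lay between 1.38 and 1.55 in C4-2B MDVR and between 2.35 and 2.62 in the CWR22Rv1 line. The threshold alternatives do not apply to medians or single genes.

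Rescaling by sum outside the mitochondrial chromosome shifted the APO median over genes above 1 FPKM by -0.15 in each line, and TPM rescaling by -0.14 (C4-2B MDVR) and 0.11 (CWR22Rv1). Members near 1.2-fold (AMD1, OAZ1, OAZ2, AZIN1 and SMS) crossed it under at least 1 rescaling. The cause was not tested. The libraries carry no replicate numbers to pair, and no fit that takes the 2 lines as replicates of a treatment was run.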
